A study of Mus musculus with 10 samples.

Results

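The genes described here are the protein-coding chemokines and chemokine receptors of the mouse, measured in the whole uterus. They were chosen by name, as every protein-coding gene called *Ccl*, *Cxcl*, *Xcl*, *Ccr*, *Cxcr*, *Xcr* or *Ackr* with a number, and *Cx3cl1* and *Cx3cr1*. The rule gave 58 genes of the 29268 genes in the count table, 36 ligands and 22 receptors. They carry 57 names, since *Ccl21a* is listed under 2 gene identifiers. *Ccl19*, *Ccl21b*, *Ccl26* and *Cxcr1* were not analysed here, and *Cxcl11*, listed as a polymorphic pseudogene, is no member.

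The uteri came from 5 HSD17B1TG and 5 wild-type (WT) female mice of the FVB/N strain at the age of 4 months. HSD17B1TG mice, a heterozygous line, express the human HSD17B1 cDNA in all tissues, driven by the chicken beta-actin promoter with a cytomegalovirus enhancer, and HSD17B1 converts the weak estrogen estrone into the potent estrogen estradiol. The study's methods state, for its histology, that HSD17B1TG females do not cycle and that WT uteri were taken at random phases of the estrous cycle, so the genotype and the state of the cycle cannot be told apart. One library was made per mouse, and mice are called TG1 to TG5, or WT1 to WT5, in the order of their animal numbers. The groups were compared to ask which members of the family differ between a uterus that expresses human HSD17B1 and a normal uterus. Whole tissue was sequenced, and in bulk RNA fewer cells of a type and less RNA per cell cannot be told apart.

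Chemokines are small secreted proteins that direct the movement of leucocytes. They bind G-protein-coupled receptors that signal through inhibitory G proteins and drive migration towards the source of the ligand. Inflammatory chemokines are induced by cytokines and microbial signals and bring in neutrophils, monocytes and T cells, whereas homeostatic chemokines such as CXCL12 and CCL21 place cells within tissues and lymphoid organs. Atypical receptors bind chemokines without this coupling and remove or transport them. In the uterus, chemokines of epithelium, stroma and vessels accompany the traffic of natural killer cells, macrophages, eosinophils and neutrophils through the cycle and pregnancy.

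Promoters are shown for the called ligands *Ccl28* and *Xcl1*, and for *Cxcl15* and *Cxcl1*, which lie in the genomic cluster of the called *Cxcl5*. Each is the 250 bases before the transcription start in RefSeq on GRCm38.p6, written 5′ to 3′ on the strand of the gene. The windows lie at chr13:119623569-119623818 (plus strand, *Ccl28*), chr1:164935523-164935772 (minus strand, *Xcl1*), chr5:90794284-90794533 (plus strand, *Cxcl15*) and chr5:90890995-90891244 (plus strand, *Cxcl1*). Capitals mark the matches that a search on both strands found, which were TGACC in *Xcl1* (the reverse complement of GGTCA, from -47 to -43), the TATA box TATAAA in *Cxcl15* (from -27 to -22) and the NF-kappaB motif in *Cxcl1*, where matches on the 2 strands overlap (from -71 to -61).
Ccl28: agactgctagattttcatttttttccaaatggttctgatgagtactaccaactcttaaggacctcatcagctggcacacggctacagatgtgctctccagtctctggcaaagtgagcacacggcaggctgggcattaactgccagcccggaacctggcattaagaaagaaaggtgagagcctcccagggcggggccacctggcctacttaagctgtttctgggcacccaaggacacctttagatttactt
Xcl1: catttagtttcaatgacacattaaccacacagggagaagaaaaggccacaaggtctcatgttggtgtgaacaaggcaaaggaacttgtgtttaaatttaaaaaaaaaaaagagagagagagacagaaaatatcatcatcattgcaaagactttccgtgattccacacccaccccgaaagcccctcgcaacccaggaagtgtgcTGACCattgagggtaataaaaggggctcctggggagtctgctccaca
Cxcl15: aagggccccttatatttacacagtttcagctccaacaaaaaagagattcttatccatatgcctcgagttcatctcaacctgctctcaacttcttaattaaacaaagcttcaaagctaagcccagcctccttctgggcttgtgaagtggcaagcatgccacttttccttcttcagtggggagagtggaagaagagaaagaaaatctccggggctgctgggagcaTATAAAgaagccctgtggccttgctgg
Cxcl1: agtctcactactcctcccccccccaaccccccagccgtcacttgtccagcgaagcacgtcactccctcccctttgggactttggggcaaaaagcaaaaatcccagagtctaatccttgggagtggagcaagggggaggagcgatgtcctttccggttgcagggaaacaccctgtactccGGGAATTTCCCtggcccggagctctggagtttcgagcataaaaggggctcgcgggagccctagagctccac
The *Ccl28* window held none of the motifs searched.

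RefSeq windows were at hand for 43 of the 57 names, which have 50 windows in all. The called *Cxcl17*, *Cxcl16* and *Cxcl5* had no window, so they were not searched. The NF-kappaB motif, the site of a factor that induces many inflammatory chemokines, was found in 11 of the 50 windows (22%), against 7.25% of the 32851 windows of all genes. These 11 were *Cxcl1*, *Cxcl2*, *Cxcl3*, *Cxcl10*, *Ccl1*, *Ccl9*, *Ccl20*, *Ackr2*, *Ccr1*, *Ccr3* and *Ccr6*, and edgeR called none of them with all mice. The full palindrome of the estrogen response element, searched as GGTCANNNTGACC, was found in 0 of the 50 windows and in 0.0639% of all windows. Its core GGTCA alone, a common word that also lies within the palindrome, was found in 54.0% of the family's windows and in 35.2% of all. TATAAA was found in 30% against 12.4%, the AP-1 motif TGANTCA in 12.0% against 6.75%, and TTCNNNGAA, a STAT site, in 8.0% against 7.02%. These shares describe the letters in the windows, and none of them was tested against the expression values.

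Counts on genes totalled 14817228 to 23271988 per mouse, and 3 counts equal 0.202 CPM (counts scaled to a common library total) in the shallowest library. Levels are given as FPKM, fragments per kilobase of gene, scaled for sequencing depth, and can therefore be compared between genes. Fold changes are log2 of HSD17B1TG over WT with their standard error (SE), from edgeR's quasi-likelihood test on the counts, and p-values were adjusted by Benjamini-Hochberg over 16993 genes. A gene was called when its adjusted p was under 0.05, its fold change over 2 and its mean FPKM over 1 in either group. The tissue labelled uterus held its defining genes, with the summed FPKM of 8 uterine markers at 248.6 to 1156 in HSD17B1TG and 417.8 to 842.6 in WT. Of these 8, 3 had a log2 fold change above 0 and 5 below, and *Hoxa10* and *Hoxa11* were called lower in HSD17B1TG. The summed FPKM of 6 smooth muscle markers ran from 839.5 to 7210 in HSD17B1TG, highest in TG1, and from 401.1 to 5689 in WT, highest in WT4.

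*Cxcl17* had the highest level of the family in TG2 to TG5, and in TG1 *Cxcl12* and *Ccl8* exceeded it. The summed FPKM of all 58 members was 553.1 to 1156 in HSD17B1TG and 271.1 to 473.7 in WT, and the groups did not overlap. *Cxcl17* alone held 21.3% to 72.5% of this sum in HSD17B1TG and 3.16% to 24.2% in WT. Without *Cxcl17* the sums were 260.1 to 474.9 and 258.1 to 395.7, and the groups overlapped. The plot of summed FPKM by mouse shows these shares.

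**Figure D1:**
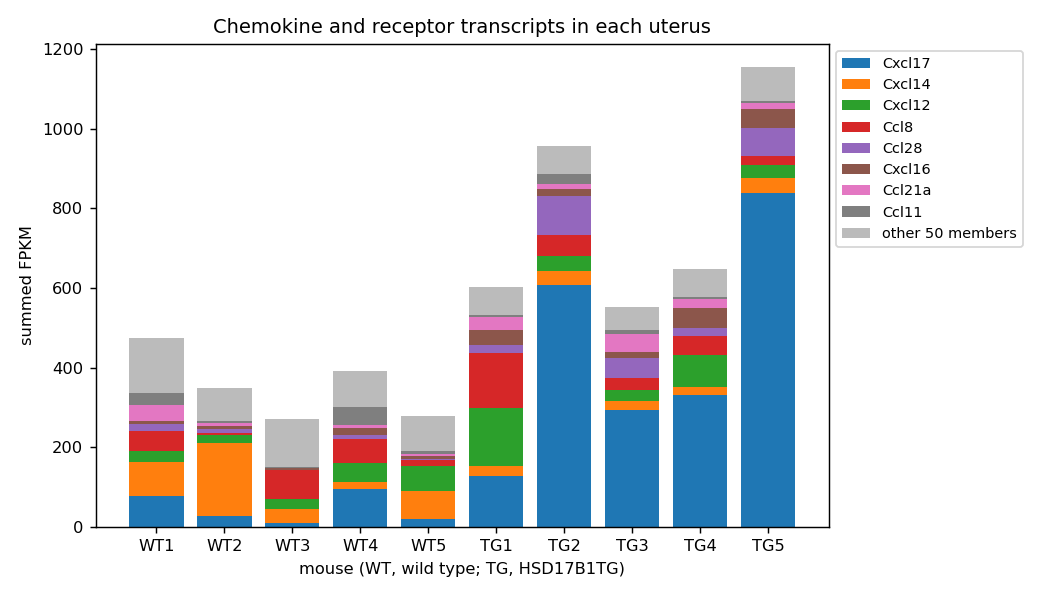
Summed FPKM (y axis) of the 58 chemokine and receptor genes in each mouse (x axis), with the 8 ligands of highest mean FPKM in colour and the other 50 members in grey. The HSD17B1TG bars (553.1 to 1156) stand above the WT bars (271.1 to 473.7), and without the blue segment, *Cxcl17*, the groups overlap (260.1 to 474.9 against 258.1 to 395.7).

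Of the 58 members, 37 passed the filter on low counts and were tested, and 21 did not pass. Of those tested, 4 of 37 (10.8%) were called higher in HSD17B1TG, against 2.16% of all genes tested. They were the ligands *Cxcl17*, *Ccl28*, *Cxcl16* and *Cxcl5*. One was called lower, 1 of 37 (2.70%), against 2.08% of all genes, and that was the ligand *Xcl1*. At an unadjusted p under 0.05, 6 members were higher (16.2%, against 14.7% of all genes) and 7 lower (18.9%, against 11.4%). The log2 fold change was above 0 in 13 of 37 members (35.1%, against 50.2% of all genes), and its median was -0.42 against 0.00 over all genes. A gene that passed the filter only through the group where it was high had to differ, so these counts describe the members tested and not the family.

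The calls depended on single mice. With 1 mouse left out in turn, edgeR called 0 to 6 members higher and 0 to 5 lower, while the calls among all genes ran from 38 to 888 higher and from 27 to 666 lower. *Cxcl17*, *Ccl28*, *Cxcl16* and *Cxcl5* were called in 3 of the 10 such fits (without TG1, TG3 or WT4), and *Xcl1* in 6 of 10. Unadjusted p-values under 0.05 stayed at 5 to 7 members higher and 7 to 9 lower in these fits. DESeq2, run without the filter on 58 members and 29268 genes, called 5 members higher (8.62%, against 3.10% of all genes) and 6 lower (10.3%, against 2.28%), with 10 and 9 at an unadjusted p under 0.05.

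**Figure D2:**
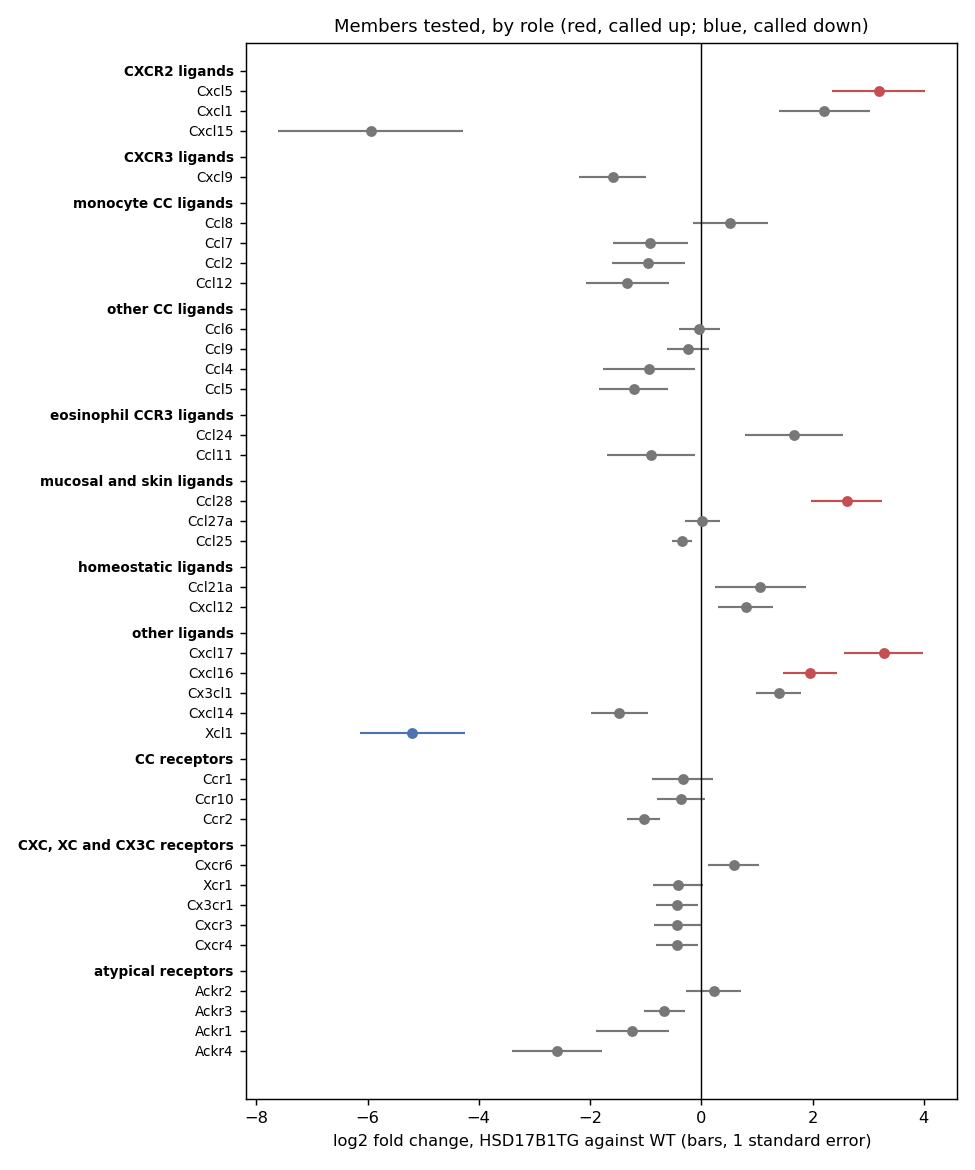
Log2 fold change of HSD17B1TG against WT (x axis, points) with 1 SE (bars) for 36 of the 37 members tested, grouped by role on the y axis. The 4 members called higher are red, *Xcl1* is blue, and 10 of the 12 receptors shown lie left of 0.

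The mucosal ligands *Cxcl17* and *Ccl28* rose. *Cxcl17*, a chemokine of mucosal epithelia that attracts monocytes and dendritic cells, had the highest mean level of the family. It lies at chr7:25400053-25412886 on the minus strand (GRCm38, as are all gene positions here). Its FPKM was 128, 608, 293, 331 and 838 in TG1 to TG5 and 77.9, 27.3, 8.56, 94.4 and 19.5 in WT1 to WT5. Every HSD17B1TG mouse stood above every WT mouse, a pattern that 2 of 37 members (5.41%) and 4.04% of all genes showed. In the test its log2 change was 3.28 (SE 0.71, adjusted p = 0.0317 by edgeR), a 9.69-fold difference. An antisense gene, *4732471J01Rik*, overlaps the *Cxcl17* locus without sharing exonic bases, and it had a log2 fold change of 2.58 (adjusted p = 0.0212 by edgeR) at a mean FPKM of 1.86 against 0.311. The strand setting of the counting is not given in the sources used here.

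*Ccl28*, a ligand of CCR10 and CCR3 that draws antibody-secreting cells to mucosal surfaces, lies at chr13:119623819-119654359. Its FPKM was 19.8, 98.3, 50.4, 19.4 and 70.7 in TG1 to TG5 and 17.3, 9.75, 1.82, 9.22 and 4.20 in WT1 to WT5. The groups did not overlap, although WT1 came close to TG1 and TG4. Between the groups its log2 fold change was 2.61 (SE 0.64, adjusted p = 0.0414 by edgeR). Its receptors did not pass the test. For *Ccr10*, mean FPKM and SD over 5 mice were 0.619 ± 0.332 in HSD17B1TG and 0.794 ± 0.184 in WT (log2 fold change -0.36), and *Ccr3*, which was not tested, was at or below 0.190 FPKM in every mouse.

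The related ligands did not pass the test. *Ccl25*, the ligand of CCR9 in the gut, had 0.923 ± 0.105 FPKM in HSD17B1TG and 1.17 ± 0.147 in WT (n = 5 each). *Ccl27a*, the skin ligand of CCR10, had 5.25 ± 2.12 and 5.15 ± 1.47. *Ccl27b*, a near copy of *Ccl27a* with which reads may be shared, and *Ccl20*, the ligand of CCR6, did not pass the filter.

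Of the transmembrane ligands *Cxcl16* rose. *Cxcl16* and *Cx3cl1* are the chemokines that are anchored in the membrane by a stalk, bind CXCR6 and CX3CR1, and are released by ADAM proteases. *Cxcl16* (chr11:70453983-70459984, minus strand) had 38.7, 17.2, 14.5, 51.9 and 46.7 FPKM in TG1 to TG5 and 6.76, 8.28, 3.63, 18.6 and 6.25 in WT1 to WT5. WT4 stood above TG2 and TG3, and the other WT mice below all HSD17B1TG mice. The log2 fold change was 1.96 (SE 0.48, adjusted p = 0.0427 by edgeR). *Cxcl16* shares 552 of its 3021 exonic bases with *Zmynd15* on the other strand, which had 14.7 against 3.73 FPKM and a log2 fold change of 1.98 (adjusted p = 0.0802 by edgeR). How far reads of 1 gene were counted for the other was not tested.

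*Cx3cl1* (chr8:94772009-94782427) had 6.72, 17.2, 13.4, 11.9 and 20 FPKM in TG1 to TG5 and 9.40, 4.51, 2.59, 7.23 and 2.62 in WT1 to WT5. TG1 lay inside the WT range, and the other 4 HSD17B1TG mice above it. Its log2 fold change of 1.39 (SE 0.40, adjusted p = 0.0627 by edgeR) did not pass, whereas DESeq2 called it.

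The receptors of these membrane ligands did not pass the test. *Cxcr6*, carried by activated T cells and innate lymphocytes, had 1.94, 1.16, 0.413, 1.67 and 0.532 FPKM in TG1 to TG5. In WT1 to WT5 it had 0.779, 0.791, 0.450, 0.777 and 1.01 FPKM, so the HSD17B1TG mice lay on both sides of the WT range. In the test its log2 change was 0.58 (SE 0.45, adjusted p = 0.450 by edgeR). *Cx3cr1*, a receptor of macrophages and monocytes, had 3.04 ± 1.31 FPKM in HSD17B1TG and 4.08 ± 1.88 in WT (n = 5 each).

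Most epithelial markers had log2 fold changes above 0 as well, and none was called by edgeR. The summed FPKM of 9 epithelial markers was 651.6 to 2965 in HSD17B1TG and 404.6 to 1617 in WT, and none of the 9 was at 0. Of the 9, 8 had a log2 fold change above 0, and 7 had an unadjusted p under 0.05, while DESeq2 called 3 (*Cdh1*, *Cldn4* and *Cldn7*). Set against this sum in each mouse, a comparison chosen after the values were seen, *Cxcl17* had 12.4 to 28.3 FPKM per 100 FPKM of markers in HSD17B1TG and 2.11 to 8.09 in WT, and the groups did not overlap. *Ccl28* had 1.08 to 4.55 against 0.449 to 1.80, *Cxcl16* 0.616 to 5.95 against 0.701 to 1.39, and *Cx3cl1* 0.567 to 1.03 against 0.447 to 0.975, all with overlap. The part of the epithelial markers in these results was not tested beyond this comparison.

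**Figure D3:**
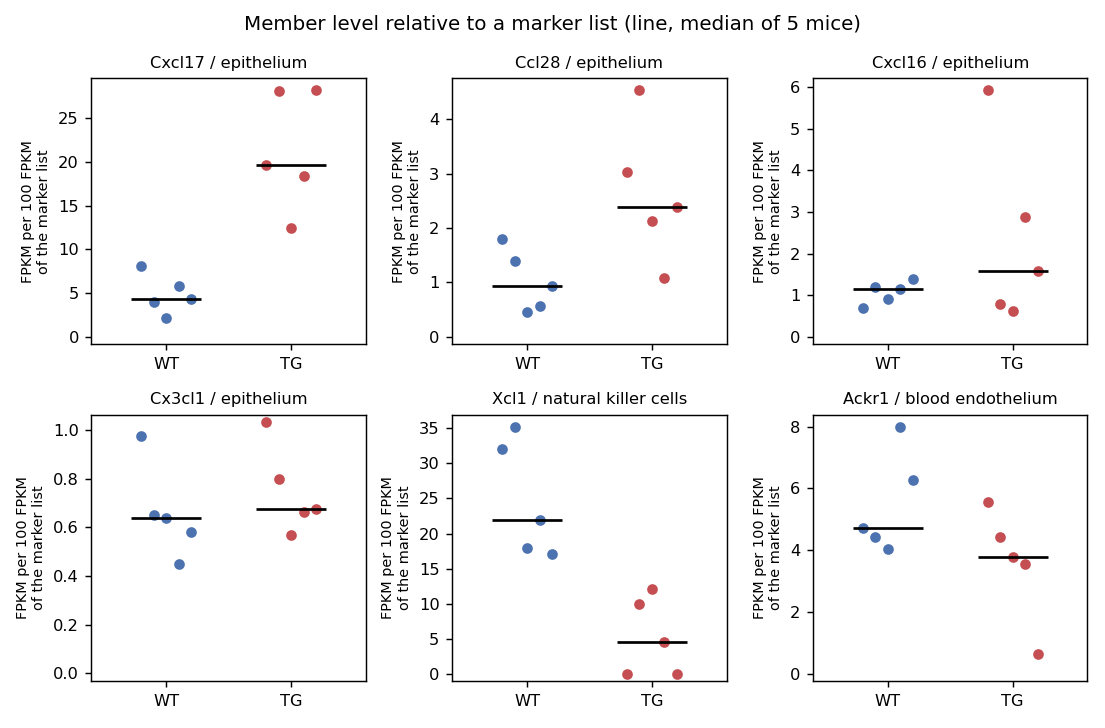
FPKM of a member per 100 FPKM of a summed marker list (y axis) in each mouse, for WT and HSD17B1TG (x axis), with the median of 5 mice as a line. *Cxcl17* relative to epithelium (12.4 to 28.3 against 2.11 to 8.09) and *Xcl1* relative to natural killer cells (0 to 12.1 against 17.1 to 35.2) do not overlap, and the other 4 panels do.

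*Xcl1* fell. XCL1, or lymphotactin, is secreted by natural killer cells and activated CD8 T cells and attracts the dendritic cells that carry XCR1. The gene lies at chr1:164931644-164935527 on the minus strand. Its FPKM was 0, 0.989, 0.305, 0.119 and 0 in TG1 to TG5, from counts of 0, 9, 3, 1 and 0. In WT1 to WT5 it was 18.3, 7.35, 18.1, 2.13 and 8.5, from counts of 235, 73, 153, 23 and 91. All HSD17B1TG mice stood below all WT mice, which held for 1 of 37 members (2.70%) and for 2.65% of all genes lower in this way. Between the groups its log2 fold change was -5.20 (SE 0.94, adjusted p = 0.0219 by edgeR). It was -6.49 and called without TG2, the HSD17B1TG mouse with the most counts, and not called without TG4, TG5, WT2 or WT5 (-5.33 to -4.90). The gene shares 98 of its 523 exonic bases with *Gm20743* on the other strand, which had a mean FPKM of 0.0115 in HSD17B1TG and 0.145 in WT.

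Of 8 natural killer cell markers 5 fell with it. All 8 had a log2 fold change below 0 and an unadjusted p under 0.05, against 11.4% of all genes lower in this way. Their summed FPKM was 2.27 to 9.89 in HSD17B1TG and 9.72 to 100.8 in WT. Of the 8, edgeR called 5 lower (*Prf1*, *Eomes*, *Ncr1*, *Klre1* and *Gzmb*), against 2.08% of all genes. DESeq2 called 7 lower, with *Gzma* and *Klrd1* added, against 2.28% of all genes. *Ncr1*, an activating receptor of natural killer cells, remained above 0 in every HSD17B1TG mouse (0.627 to 1.68 FPKM, against 1.29 to 12.3 in WT). *Eomes*, *Klre1* and *Klrb1c* were at 0 in TG5 and *Gzmb* was at 0 in TG4. Per 100 FPKM of these markers, a comparison chosen after the values were seen, *Xcl1* had 0, 10, 12.1, 4.45 and 0 FPKM in TG1 to TG5 and 17.1 to 35.2 in WT, where the HSD17B1TG values rest on 0 to 9 counts of *Xcl1*. Of 9 T cell markers, 4 were tested and edgeR called 0 (1 higher and 1 lower at an unadjusted p under 0.05, and 0 called by DESeq2). Their summed FPKM was 3.15 to 4.35 in HSD17B1TG and 2.52 to 7.72 in WT. *Xcr1* had 0.379 ± 0.125 FPKM in HSD17B1TG and 0.505 ± 0.250 in WT (n = 5 each), a log2 fold change of -0.42 that did not pass the test.

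Among the ligands of neutrophil type *Cxcl5* rose, and none was called lower by edgeR. These CXC chemokines with an ELR motif draw neutrophils, most of them through CXCR2, and lie with *Cxcl2* and *Cxcl3* in a cluster of 5 members at chr5:90759360-90905938. *Cxcl5* is made mainly by epithelial cells. Its FPKM was 0.605, 0.987, 1.88, 3.33 and 14.9 in TG1 to TG5 and 0.437, 0.254, 0.499, 0.650 and 0.524 in WT1 to WT5. TG5 stood far above the rest, and TG1 lay inside the WT range. The log2 fold change was 3.19 (SE 0.84, adjusted p = 0.0494 by edgeR), and 1.83 and not called without TG5. The call was also lost with voom, with both fits on log2 FPKM and without the filter on low counts. Per 100 FPKM of the epithelial markers, which were mostly higher in HSD17B1TG as given above, *Cxcl5* had 0.0457 to 0.504 FPKM against 0.0366 to 0.123, and the groups overlapped.

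*Cxcl1*, a ligand of CXCR2 with the NF-kappaB matches printed above, had 0.0858, 0.307, 0.539, 1.12 and 2.64 FPKM in TG1 to TG5 and 0.0661 to 0.365 in WT. It was highest in TG5, like *Cxcl5*. Its log2 fold change of 2.21 (SE 0.82, adjusted p = 0.119 by edgeR) did not pass, and its mean FPKM was below 1 in both groups. Without TG1 it was called higher (2.51), and without TG5 it was 1.34. *Cxcl2* reached 0.684 FPKM in HSD17B1TG and 0.178 in WT, and with at most 22 counts in a mouse it did not pass the filter.

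*Cxcl15*, or lungkine, is a secreted product of lung and other mucosal epithelia whose receptor is not settled. It lies 32.9 kb downstream of *Cxcl5*. It was at 0 FPKM in TG1 to TG4 and at 1.06 in TG5. WT1 to WT5 had 1.78, 18.8, 32.3, 0.159 and 9.76 FPKM, so WT2, WT3 and WT5 stood above all others and WT4 lay below TG5. Its log2 fold change of -5.94 (SE 1.66, adjusted p = 0.0566 by edgeR) did not pass, while DESeq2, library size scaling, the fit on log2(FPKM + 0.1) and the edgeR fit without WT4 called it lower. The 35 counts of TG5 were the only ones in HSD17B1TG, so without TG5 the fitted value of -12.01 depends on the prior count and is no bound.

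*Cxcr2* was at or below 0.0880 FPKM in every mouse and had at most 5 counts. The summed FPKM of 9 neutrophil markers was 7.58 to 13 in HSD17B1TG and 3.01 to 4.88 in WT, without overlap. Of these 9, 4 were tested, 3 had a log2 fold change above 0, and edgeR called 1, *Il1r2*, lower and 0 higher. DESeq2 called *S100a9*, a calcium-binding protein of neutrophils, higher (log2 fold change 3.20, adjusted p = 0.0967 by edgeR) as well as *Il1r2* lower. *Ly6g*, which marks mouse neutrophils, had 1.25 to 9.42 FPKM in HSD17B1TG and 0 to 3.91 in WT and was not called. *Retnlg* and *Ngp* were at 0 in every WT mouse and at or below 0.271 FPKM in HSD17B1TG.

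**Figure D4:**
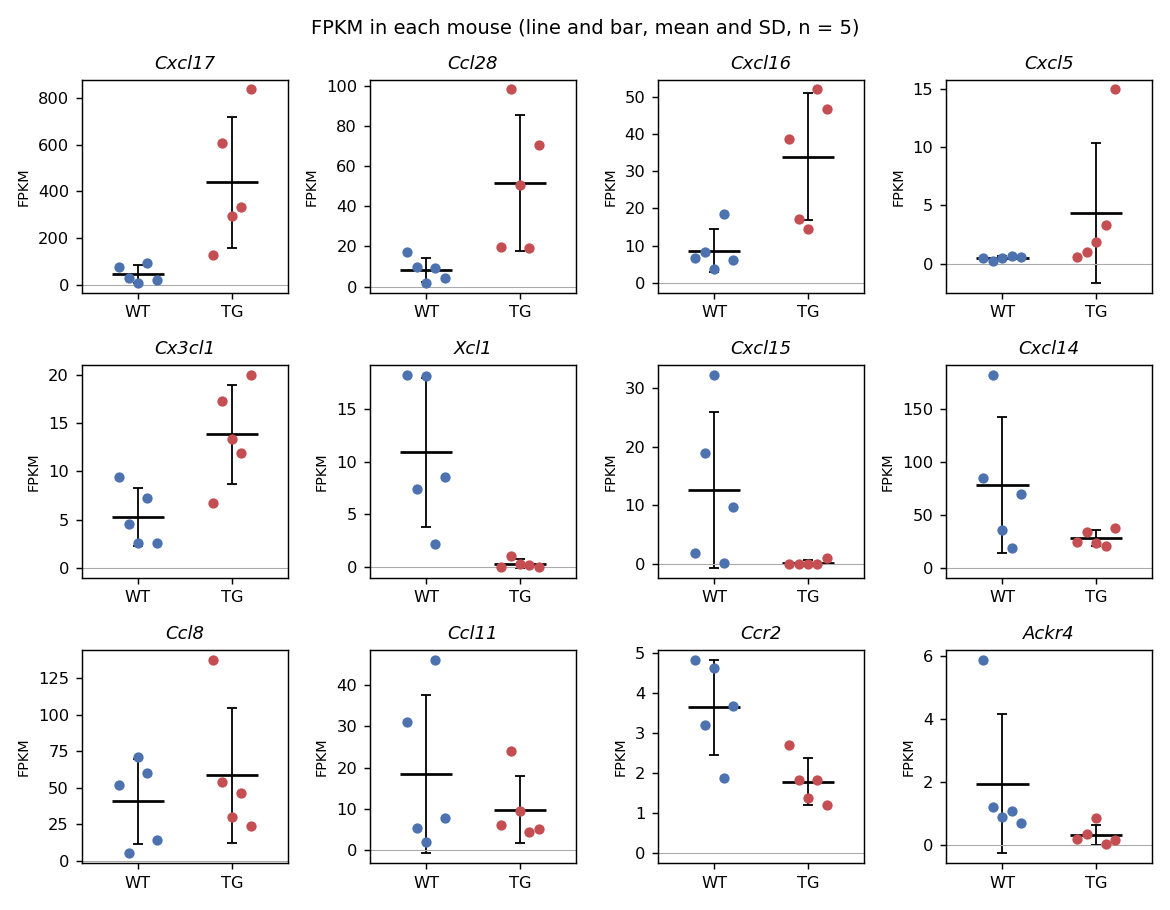
FPKM (y axis) of 12 members in each mouse, for WT and HSD17B1TG (x axis), with mean (line) and SD (bars), n = 5. *Cxcl17*, *Ccl28* and *Xcl1* show no overlap between the groups, and single mice set the upper end for *Cxcl5* (TG5, 14.9 FPKM), *Ccl8* (TG1, 138) and *Ackr4* (WT1, 5.89).

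*Cxcl14*, a chemokine of stroma and epithelium that attracts monocytes and natural killer cells, was the member with the highest mean level in WT. It had 25.0, 34.4, 23.9, 20.6 and 37.6 FPKM in TG1 to TG5 and 84.7, 182, 35.6, 18.7 and 69.4 in WT1 to WT5. The HSD17B1TG mice lay close together, and the WT mice spread from below to far above them. In the test its log2 change was -1.47 (SE 0.51, adjusted p = 0.0986 by edgeR), and -0.91 without WT2. DESeq2 called it lower, as did edgeR without WT4 (-1.72). Stromal markers moved in the same direction: of 8 markers 7 were lower and edgeR called 4 (*Hoxa11*, *Pdgfra*, *Hoxa10* and *Thy1*), with a summed FPKM of 499.2 to 1896 against 1554 to 1987 and none at 0. Per 100 FPKM of these markers, a comparison chosen after the values were seen, *Cxcl14* had 1.32 to 7.53 FPKM in HSD17B1TG and 1.02 to 11.6 in WT, so the groups overlapped.

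The homeostatic ligands did not pass the test. *Cxcl12*, the stromal ligand of CXCR4 and ACKR3, had 145, 38.3, 26.5, 81.1 and 32.8 FPKM in TG1 to TG5 and 27.2, 21, 26.5, 47.3 and 63.9 in WT1 to WT5. The groups overlapped, with TG1 and TG4 above all WT mice. Between the groups its log2 fold change was 0.80 (SE 0.50, adjusted p = 0.338 by edgeR), and 0.27 without TG1. *Cxcr4* had 2.49 ± 0.611 FPKM in HSD17B1TG and 3.35 ± 1.58 in WT (n = 5 each, log2 fold change -0.44).

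*Ccl21a*, the CCR7 ligand of lymphatic vessels, was tested under the identifier placed on an unassembled scaffold. It had 31.4, 12.4, 46.1, 21.3 and 15.5 FPKM in TG1 to TG5 and 40.5, 6.68, 0.463, 6.99 and 5.83 in WT1 to WT5. WT1 stood apart from the other WT mice, which lay below all HSD17B1TG mice. The log2 fold change was 1.06 (SE 0.81, adjusted p = 0.445 by edgeR), and 2.30 without WT1, where it was not called either. The copy on chromosome 4 and *Ccl21c* were at or below 1.00 FPKM and not tested. Reads can be shared between these near-identical genes, so their separate levels are uncertain. The 4 lymphatic markers were all higher, 3 with an unadjusted p under 0.05, and edgeR called 0 and DESeq2 3 (summed FPKM 10.5 to 45.8 against 2.94 to 22.6). In WT1 they summed to 6.17, while its *Ccl21a* was the highest of the WT mice. *Ccr7*, the receptor of naive T cells and mature dendritic cells, was at or below 0.376 FPKM.

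The monocyte attractants of the CC class showed no group difference that passed. *Ccl8* was the most abundant of them. It had 138, 53.8, 29.9, 46.6 and 23.9 FPKM in TG1 to TG5 and 52.1, 5.05, 71.3, 60.2 and 14.2 in WT1 to WT5. TG1 was far above the others, and the log2 fold change of 0.52 (SE 0.68, adjusted p = 0.669 by edgeR) turned to -0.07 without TG1. *Ccl12*, a mouse CCR2 ligand, had 4.90, 2.68, 0.990, 0.924 and 1.08 FPKM in TG1 to TG5 and 10.1, 0.588, 5.08, 9.29 and 1.64 in WT1 to WT5. In the test its log2 change was -1.33 (SE 0.75, adjusted p = 0.292 by edgeR). *Ccl7* (2.73 ± 0.446 FPKM against 5.17 ± 5.17) and *Ccl2* (0.817 ± 0.538 against 1.58 ± 1.11, n = 5 each) had lower means in HSD17B1TG and did not pass. In WT, *Ccl7*, *Ccl12*, *Ccl2* and the eosinophil attractant *Ccl11* were all highest in WT1 and WT4 and all but *Ccl11* lowest in WT2. *Ccl7*, *Ccl12*, *Ccl2*, *Ccl11* and *Ccl8* lie together with *Ccl1* at chr11:82035571-82305690.

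*Ccl11*, or eotaxin, acts on CCR3 of eosinophils. It had 6.20, 24, 9.48, 4.36 and 5.11 FPKM in TG1 to TG5 and 31.0, 5.45, 2.01, 46.1 and 7.90 in WT1 to WT5. The groups overlapped fully, with a log2 fold change of -0.90 (SE 0.79, adjusted p = 0.506 by edgeR), and -0.23 without WT4. *Ccl24*, the other CCR3 ligand, had 0.974 ± 0.838 FPKM in HSD17B1TG and 0.301 ± 0.240 in WT (n = 5 each) and did not pass. Among the eosinophil markers, 2 were tested and edgeR called 0 (1 higher at an unadjusted p under 0.05, and *Alox15* called by DESeq2). The summed FPKM of the 6 markers analysed was 49.4 to 328.3 in HSD17B1TG and 7.04 to 82.0 in WT, nearly all of it from *Alox15*, an enzyme that epithelial cells also make. The defining eosinophil genes *Siglecf*, *Epx* and *Prg2* were at or below 0.299 FPKM in every mouse, *Ear2* reached 0.517 in WT3, and *Il5ra* had 0.0347 to 1.17 FPKM in HSD17B1TG and 0 to 0.751 in WT (log2 fold change 1.06, not called).

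A second group of inflammatory CC ligands lies at chr11:83525778-83664683, and all 4 that were tested had log2 fold changes below 0 without passing. *Ccl5*, or RANTES, a product of T and natural killer cells, had 0.503, 2.51, 0.221, 0.711 and 1.27 FPKM in TG1 to TG5 and 3.18, 0.822, 2.71, 1.77 and 3.66 in WT1 to WT5. TG1, TG3 and TG4 lay below all WT mice, and the log2 fold change was -1.22 (SE 0.62, adjusted p = 0.239 by edgeR). *Ccl6* (6.72 ± 1.06 FPKM against 6.86 ± 3.49), *Ccl9* (2.06 ± 0.614 against 2.42 ± 1.5) and *Ccl4* (0.797 ± 0.452 against 1.51 ± 1.67) overlapped between the groups (n = 5 each).

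The interferon-induced ligands of CXCR3 were scarce. *Cxcl9* had 0.0889, 0.0762, 0.0176, 0.144 and 0.277 FPKM in TG1 to TG5 and 0.512, 0.367, 0.535, 0.177 and 0.227 in WT1 to WT5. Between the groups its log2 fold change was -1.59 (SE 0.59, adjusted p = 0.121 by edgeR), and *Cxcl10*, at or below 0.798 FPKM, was not tested. *Cxcr3*, their receptor on activated T cells, had 0.785 ± 0.349 FPKM in HSD17B1TG and 1.06 ± 0.459 in WT (n = 5 each).

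Most log2 fold changes of receptors were below 0, and none was called by edgeR. Of the 22 receptors 13 were tested, 11 had a log2 fold change below 0 and 2 above (over all genes 50.2% lay above 0), and the median was -0.43. There were 0 calls by edgeR, with 3 lower at an unadjusted p under 0.05 (*Ccr2* and *Ackr4* among them, against 11.4% of all genes lower in this way), and DESeq2 called these 3 lower. Of 8 natural killer cell markers, as given above, all had log2 fold changes below 0 and edgeR called 5 lower, and of 4 T cell markers tested 3 were below 0. Of 6 general leucocyte markers edgeR called 2 higher (*Arhgdib* and *Laptm5*), while the other 4 had log2 fold changes below 0, 3 of them with an unadjusted p under 0.05 and 2 called lower by DESeq2 (*Cd52* and *Ptprc*). Their summed FPKM was 58.1 to 109.0 in HSD17B1TG and 46.3 to 83.9 in WT. Of 6 dendritic cell markers 5 had a log2 fold change below 0, and edgeR called 0, with 1 lower at an unadjusted p under 0.05 and 1 called lower by DESeq2 (*Zbtb46*). They summed to 3.99 to 7.24 FPKM against 3.82 to 10.9. The part of these cells in the receptor levels was not tested. The 24 ligands tested divided into 11 above and 13 below 0, with a median of -0.14.

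*Ccr2*, which brings classical monocytes from the blood, was the most abundant CC receptor. It had 2.71, 1.83, 1.38, 1.83 and 1.2 FPKM in TG1 to TG5 and 4.84, 3.20, 4.62, 1.89 and 3.68 in WT1 to WT5. All HSD17B1TG mice but TG1 lay below the lowest WT mouse, WT4. The log2 fold change was -1.03 (SE 0.29, adjusted p = 0.0598 by edgeR). It was called lower by DESeq2, with library size only, and without TG1 (-1.23) or WT4 (-1.20).

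Of 10 macrophage markers 7 had a log2 fold change above 0 and edgeR called 1, *Cd68*, higher, and their summed FPKM was 248.3 to 461.1 in HSD17B1TG and 221.5 to 395.8 in WT with none at 0. *Ccr1* had 1.01 ± 0.783 FPKM in HSD17B1TG and 1.27 ± 0.701 in WT (n = 5 each). *Ccr4*, *Ccr6*, *Ccr8*, *Ccr9* and *Cxcr5* were at or below 0.189 FPKM in every mouse, and *Ccr1l1* had 3 counts in all.

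The atypical receptors all passed the filter. *Ackr3*, which removes CXCL12, was the most abundant receptor, with 6.44, 12.8, 13, 8.76 and 12.4 FPKM in TG1 to TG5 and 26.7, 10.7, 5.85, 18.9 and 22.4 in WT1 to WT5. The groups overlapped, and its log2 fold change was -0.67 (SE 0.37, adjusted p = 0.281 by edgeR). *Ackr4*, which removes CCL19 and CCL21, had 0.189, 0.342, 0.859, 0.0461 and 0.179 FPKM in TG1 to TG5 and 5.89, 1.2, 0.887, 1.10 and 0.690 in WT1 to WT5. WT1 stood far above the rest, and it also stood above the other WT mice for *Ccl21a*, and TG3 was the HSD17B1TG mouse inside the WT range. Between the groups its log2 fold change was -2.59 (SE 0.81, adjusted p = 0.0752 by edgeR), and -1.61 without WT1. Without TG3 it was -3.38 and called lower, and DESeq2 called it lower with all mice. *Ackr4* shares 479 of 5380 exonic bases with *Acad11* on the other strand, whose log2 fold change was -0.03.

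*Ackr1*, the Duffy receptor of venules and red cell precursors, had 1.39 ± 1.19 FPKM in HSD17B1TG and 3.27 ± 1.33 in WT (n = 5 each), with a log2 fold change of -1.24 (SE 0.65, adjusted p = 0.258 by edgeR). It shares 361 of 1405 exonic bases with *Cadm3* on the same strand, which had a log2 fold change of -1.19. Blood endothelial markers were also lower in 5 of 6, with a summed FPKM of 14.4 to 57.6 against 36.1 to 91.0 and none called by edgeR (3 lower at an unadjusted p under 0.05 and 1 called by DESeq2, *Emcn*). Relative to them *Ackr1* overlapped between the groups (0.635 to 5.57 FPKM per 100 FPKM of markers against 4.03 to 8.01). *Ackr2*, which removes inflammatory CC chemokines, had 0.457 ± 0.130 and 0.388 ± 0.260 FPKM.

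The 21 members that did not pass the filter had at most 40 counts in any mouse and 2 to 94 counts over all 10. They include the CCR4 ligands *Ccl17* and *Ccl22* and the CCR8 ligand *Ccl1*. *Ccl17* reached 1.09 FPKM in TG4 and 2.13 in TG5 and was at or below 0.317 elsewhere. The *Ccl21a* copy on chromosome 4 had 0.295 to 0.927 FPKM in HSD17B1TG and 0 to 0.168 in WT, from 42 counts in all, and its groups did not overlap. The main test left these genes out. In the fits that included them, DESeq2 called 0 (4 higher and 0 lower at an unadjusted p under 0.05, and 6 without an adjusted p) and edgeR without the filter called 0 (4 higher and 1 lower). *Cxcl2* and this *Ccl21a* copy had a DESeq2 adjusted p under 0.05 and were not called at their low FPKM.

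Genes that act with the family were described from lists. One list held cytokines, transcription factors and inhibitors around NF-kappaB, interferon and related signalling, with *Nfkbia* and *Tnfaip3* among the inhibitors. Of its 18 genes tested, 17 had a log2 fold change above 0, 12 of them with an unadjusted p under 0.05. Over all genes, 50.2% were above 0 and 14.7% higher in this way. Of the 18, edgeR called 3 higher, against 2.16% of all genes, and DESeq2 called 7. The 3 were the cytokine *Il1a* (7.85 ± 4.17 FPKM against 0.254 ± 0.134, log2 fold change 4.93, adjusted p = 0.00956), the interferon regulatory factor *Irf7* (44.6 ± 30 against 4.51 ± 2.89, 3.31, adjusted p = 0.0177) and *Nfkbiz*, an atypical inhibitor of NF-kappaB (19.0 ± 9.04 against 7.29 ± 1.86, 1.38, adjusted p = 0.0348; n = 5 each).

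Among 21 genes that couple the receptors to their G proteins, edgeR called 2 lower and 0 higher (over all genes 2.08% and 2.16%). They were *Gnai1*, an inhibitory alpha subunit (4.11 ± 1.23 FPKM against 17.9 ± 10.1, log2 fold change -2.13), and *Gng2*, a gamma subunit (4.25 ± 1.24 against 8.75 ± 1.93, -1.05). In the same list 3 genes were higher at an unadjusted p under 0.05 and 5 were lower (over all genes 14.7% and 11.4%). DESeq2 called 0 higher and 4 lower, *Rgs2* and *Rgs5* beside *Gnai1* and *Gng2* (over all genes 3.10% and 2.28%). Of 32 genes of migration signalling, the exchange factor *Vav1* (log2 fold change 1.85) and the kinase *Lyn* (1.28) were called higher. The adenylyl cyclase *Adcy7* (-1.51) was called lower. In this list 17 genes were above 0 and 15 below, with 6 higher and 6 lower at an unadjusted p under 0.05. The shares over all genes are those given above, for this list and those that follow. Of 14 genes that process or bind the ligands, *Tnfaip6* was called lower (1.6 ± 0.549 FPKM against 7.13 ± 2.89, log2 fold change -2.16) and 0 were called higher. *Tnfaip6* encodes the hyaluronan-binding TSG-6 that also binds chemokines. Of the 14, 6 were above 0 and 8 below, with 3 higher and 3 lower at an unadjusted p under 0.05. DESeq2 called *Mmp9* higher and *Tnfaip6* lower. Of 10 tested genes for other leucocyte attractants and their receptors, *Ltb4r1*, a receptor of the lipid leukotriene B4, was called higher (3.02 ± 1.39 FPKM against 0.772 ± 0.0930, log2 fold change 1.96).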

How the data were processed

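RNA of the whole uterus of 5 HSD17B1TG and 5 WT mice was sequenced as paired-end reads. The authors mapped the reads with HISAT2 2.0.5 to the mouse genome (GRCm38, Ensembl 94), while the counting program, with its use of strand, is not given in the sources used here. The authors deposited raw counts per gene and mouse, and FPKM scaled by a size factor per mouse. A further 10 columns of counts divided by size factors were not used, nor were the authors' own fold changes, p-values and enrichment tables.

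Samples were grouped by genotype. The filter on the raw counts was filterByExpr, the scaling TMM, and the test the quasi-likelihood test of edgeR 4.0.16 in R 4.3.3, without covariates, and FPKM give the levels. Alternatives were DESeq2 1.42.0, RLE and library size scaling, other filters, limma 3.58.1 (voom and log2 FPKM), and each mouse left out. The edgeR fit was also run on simulated counts, and the outcome is not given here. No pair of mice was alike within counting noise. Gene overlaps come from GENCODE M21. The labels do not say how the mice are related, so the p-values measure the spread between these mice. Counting limits cover counting error only. The human transgene transcript was not analysed here.

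Values in every mouse are given for the members called, those with groups that do not overlap at a mean FPKM over 1, with one of the 10 highest mean FPKM, or with the largest change of their role class. Receptors or ligands of these are given by their mean or range. *Ccr2*, *Cxcl1*, *Cxcl9* and the marker genes singled out were named after their values were seen. The members and lists were chosen with earlier results of these data known. One member is counted among those tested but is not reported here.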

Additional observations from a re-analysis of the deposited data

Results flagged for a closer look

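In 6 of the 36 groups of 5 mice looked at, 1 mouse stood apart from the other 4 by Dixon's test at the 95% level. That test assumes normal values, whereas FPKM cannot fall below 0, so its rate by chance is not known here. In all 6 the mouse that stood apart was the highest. Among HSD17B1TG mice, *Ccl8* was 137.7 FPKM in TG1 (next mouse 53.8), *Ccl11* was 24 in TG2 (next 9.48), *Cxcl5* was 14.9 in TG5 (next 3.33) and *Cxcl15* was 1.06 in TG5, where the other 4 mice were at 0. Among WT mice, *Ccl21a* was 40.5 FPKM in WT1 (next 6.99) and *Ackr4* was 5.89 in WT1 (next 1.2). TG5 also had the highest *Cxcl17* and *Cxcl1*.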

How the results depend on the processing

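The log2 fold changes of the members given in every mouse kept their sign in every alternative run, except *Ccl8*, which ran from -0.073 without TG1 to 0.80 without WT3. Called higher were 3 to 5 members in the alternatives that used all 10 mice, always with *Cxcl17*, *Ccl28* and *Cxcl16*. Called lower were 6 with DESeq2, 4 with library size only, 2 on log2(FPKM + 0.1) and 1 in the others, always with *Xcl1*. With 1 mouse left out, 0 to 6 were called higher and 0 to 5 lower, with 0 higher without TG2, TG4, TG5, WT1, WT2, WT3 or WT5, and 0 lower without TG4, TG5, WT2 or WT5. Among all genes the calls in these fits fell to as few as 65 or rose to as many as 1554, from 721 with all mice. The median log2 fold change of the members tested was -0.48 to -0.29 in these fits and -0.61 to -0.19 in the other alternatives.

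Over all genes edgeR called 367 higher and 354 lower, DESeq2 906 and 666, voom 391 and 189, and library size scaling 286 and 494, where the median of all genes was -0.17. The fits on log2(FPKM + 1) and log2(FPKM + 0.1) called 416 and 228, and 493 and 320. The 21 members that did not pass the filter had at most 40 counts in any mouse. No paired analysis was possible because the mice of the 2 groups carry animal numbers that do not pair them.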
